A study of Mus musculus with 4 samples.

Results

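Complement genes other than C1q were followed in RNA-Seq libraries of lung ILC2s. The 9 genes were *C3*, *C4b*, *Cfb*, *C1ra*, *C1s1*, *Serping1*, *C2*, *Cfd* and *Cfp*, each taken by its symbol, and each had 1 row among the 49315 genes of the deposited count table. WT mice gave the libraries PBS-WT and, after bleomycin, BLEO-WT. Hps1-/- mice gave PBS-HPS1 and, after bleomycin, BLEO-HPS1, and each of the 4 groups is 1 library. The mice were C57BL/6 or congenic on that background, and Hps1-/- mice carry a null mutation of *Hps1*, the gene affected in Hermansky-Pudlak syndrome type 1. Bleomycin is a DNA-damaging drug given to rodents to bring on lung injury and fibrosis, and the methods give an age of 10 weeks for mice injected intraperitoneally, without naming the route or the number of mice behind the sequenced cells. Cells were sorted as Lineage-Thy1.2+ICOS+T1/ST2+ and kept in medium with IL-2 before RNA extraction, in all 4 groups alike.

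Complement is a cascade of plasma proteins that marks microbes and damaged cells for removal. In the classical pathway, C1q binds its target and the proteases C1r and C1s, held in check by the C1 inhibitor that *Serping1* encodes, cleave C4 and C2 into a C3 convertase. In the alternative pathway, factor D (*Cfd*, also called adipsin) cleaves factor B (*Cfb*) on bound C3b, and properdin (*Cfp*) stabilises the resulting convertase. Both routes meet at C3, whose fragments coat targets and attract leukocytes. The liver makes most circulating complement, and fibroblasts, macrophages and epithelial cells of tissues such as the lung make several components locally.

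Total counts lay between 72513619 and 87638154 per library. Levels are given as CPM, reads scaled to a common library size with TMM factors, and 3 reads corresponded to 0.0303 to 0.0475 CPM. *Hps1* itself stood at 16.6 and 21.3 CPM in the Hps1-/- libraries (PBS first) and at 38.3 and 48.4 CPM in the WT libraries. The cells behind the libraries numbered 128647 (BLEO-HPS1), 84166 (BLEO-WT), 38873 (PBS-HPS1) and 22405 (PBS-WT), so cell number was not balanced between groups. The marker genes did not match a pure ILC2 population. The 13 measured ILC2 markers summed to between 696 and 1049 CPM, with *Il5* and *Il13* at 1.43 CPM or less, whereas 11 macrophage and monocyte markers summed to between 11856 and 21884 CPM. Levels are therefore those of libraries labelled ILC2, and no gene is assigned to a cell type.

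The promoters of 5 of the 9 genes were in the RefSeq table of build GRCm38.p6, each from 250 bases before to 50 bases after an annotated start. Those that bear on the contrasts below are printed 5′ to 3′ on the gene's own strand: *C3*, the most abundant of the 9 in reads, the paired proteases *C1ra* and *C1s1*, and *Cfd*, the only gene of the 9 lower in BLEO-HPS1 than in BLEO-WT. Capitals mark matches, on either strand, to the letters TTGCNNAA (bound by C/EBP factors), TTCNNNGAA (the GAS element of STAT factors), GAAA followed after 2 further bases by GAAA (the interferon response element), GGGA followed after 4 further bases by CC (an NF-kappaB-like motif) and TATAAA.
C3, chr17:57228087-57228386, minus strand: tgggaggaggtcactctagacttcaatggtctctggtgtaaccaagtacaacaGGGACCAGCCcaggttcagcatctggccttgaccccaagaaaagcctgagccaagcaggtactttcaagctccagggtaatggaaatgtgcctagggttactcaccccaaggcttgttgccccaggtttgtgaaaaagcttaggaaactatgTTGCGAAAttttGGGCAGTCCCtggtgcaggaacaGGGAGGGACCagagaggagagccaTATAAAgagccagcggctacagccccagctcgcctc
C1ra, chr6:124512371-124512670, plus strand: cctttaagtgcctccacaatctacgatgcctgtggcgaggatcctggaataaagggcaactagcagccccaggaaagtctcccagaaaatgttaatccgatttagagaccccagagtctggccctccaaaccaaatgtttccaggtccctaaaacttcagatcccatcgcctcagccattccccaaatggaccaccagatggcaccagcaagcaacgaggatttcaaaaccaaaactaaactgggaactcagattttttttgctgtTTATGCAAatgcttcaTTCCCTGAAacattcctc
C1s1, chr6:124542310-124542609, minus strand: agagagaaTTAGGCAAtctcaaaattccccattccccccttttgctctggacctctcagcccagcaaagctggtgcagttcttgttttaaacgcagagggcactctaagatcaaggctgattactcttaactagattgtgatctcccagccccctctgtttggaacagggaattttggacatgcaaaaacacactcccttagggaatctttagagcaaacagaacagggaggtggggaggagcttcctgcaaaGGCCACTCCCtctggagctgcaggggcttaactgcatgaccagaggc
Cfd, chr10:79890603-79890902, plus strand: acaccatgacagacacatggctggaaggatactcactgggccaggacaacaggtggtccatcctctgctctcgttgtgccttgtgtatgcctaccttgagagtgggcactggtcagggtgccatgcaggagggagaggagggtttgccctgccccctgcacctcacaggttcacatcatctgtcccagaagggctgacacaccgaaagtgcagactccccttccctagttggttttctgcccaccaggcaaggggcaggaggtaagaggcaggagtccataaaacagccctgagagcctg

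The C/EBP letters were found once each in the windows of *C3*, *C1ra* and *C1s1*, and 10.8% of all 32851 windows of the table hold them. In *C3* the match TTGCGAAA began 45 bases before the start. The GAS letters were found in *C1ra* (8.30% of all windows), the NF-kappaB-like letters in *C3* and *C1s1* (20.7%) and TATAAA in *C3* (13.6%). TATAAA in *C3*, the matches in *C1ra* and the NF-kappaB-like match in the printed *C1s1* window lay after the annotated start. Most of the *C1ra* window lies within the gene, which begins at 124512405. The interferon element (3.44% of all windows) was in none of the windows of the 5 genes that had one, and the windows of *Cfd* and *Cfp* held none of the motifs. *Serping1*, *C4b*, *C2* and *Cfb* had no window and were not searched. These are matches of letters, with no measurement of binding. A window starting from another annotated start of *C1s1* overlaps the window above and held the NF-kappaB-like match but not the C/EBP letters.

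All 9 genes reached 1 CPM in 1 or more libraries and were compared among the 14840 genes that did so. A gene is counted as higher or lower where the log2 ratio of its CPM, with a prior count of 2, was at least 1 in size, a 2-fold difference. Intervals after log2 ratios are exact 95% Clopper-Pearson intervals from the reads of the 2 libraries. They take in nothing but counting error, and the spread between mice is unknown. Each library entered 2 of the 4 comparisons, so these are not independent. BLEO-HPS1 had the highest level of 8 of the 9 genes, and BLEO-WT that of *Cfd*.

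**Figure D1:**
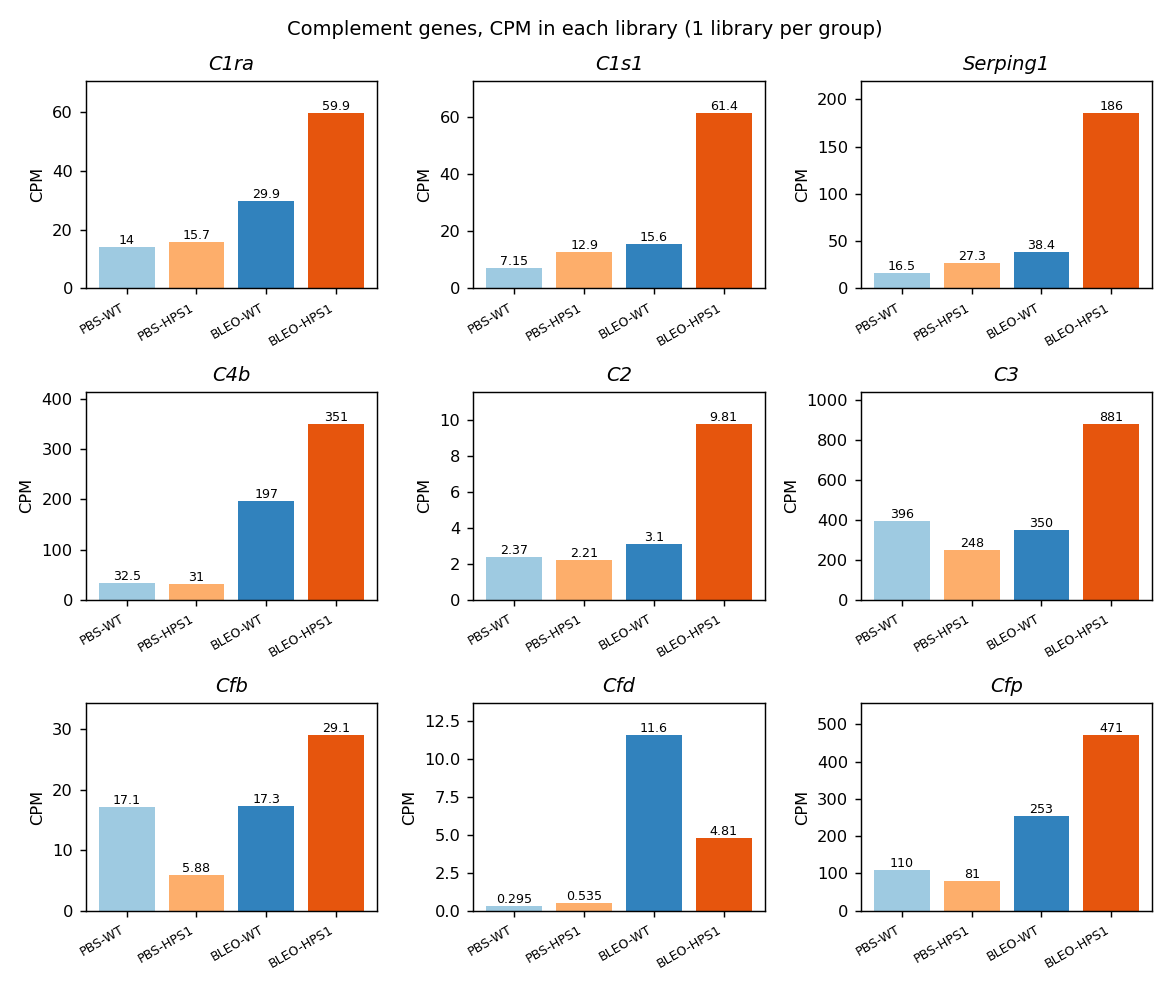
Level of each of the 9 complement genes in CPM (y axis, from 0) in the 4 libraries (x axis), 1 bar per library and no error bar because each group is 1 library. Bars of BLEO-HPS1 are the tallest in every panel except that of Cfd, where BLEO-WT reaches 11.6 CPM.

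With bleomycin, 5 of the 9 genes were higher in Hps1-/- than in WT mice and 1, *Cfd*, was lower. Of all genes compared, 17% differed by this measure, 6.72% being higher and 10.3% lower. The median log2 ratio of the 9 was 1.0, beside -0.04 for all genes compared. With PBS, none of the 9 was higher in Hps1-/- mice and *Cfb* was lower, where 5.27% of all genes differed, 2.16% higher and 3.11% lower. The median of the 9 was then -0.07, beside -0.19 for all genes. In WT mice 6 of the 9 were higher with bleomycin than with PBS and none was lower, against a background of 13.5%, made up of 5.28% higher and 8.22% lower. In Hps1-/- mice all 9 were higher with bleomycin, where 45.9% of all genes differed, 26.2% higher and 19.6% lower. The medians of the 9 for bleomycin against PBS were 1.13 in WT and 2.30 in Hps1-/- mice, beside 0.09 and 0.25 for all genes.

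Library scaling bears on these counts. Without TMM factors the median log2 ratio of all genes in BLEO-HPS1 against PBS-HPS1 went from 0.25 to -0.43, and 9.06% of genes were then higher and 34.5% lower. All 9 complement genes were still at least 2-fold higher, with a median of 1.66. In BLEO-WT against PBS-WT the same change left 2 of the 6, *C4b* and *Cfd*, past 2-fold, with 3.17% of all genes higher and 13.4% lower and an all-gene median of -0.18. In BLEO-HPS1 against BLEO-WT it left 4 higher, with 4.92% of all genes higher and 14.8% lower, and in PBS-HPS1 against PBS-WT it added *C1s1* and *Cfd* as higher, with 4.38% and 2.02%. DESeq2's size factors changed none of the 4 counts for the 9 genes, and gave 7.92% higher and 8.38% lower over all genes in BLEO-HPS1 against BLEO-WT. A correction for transcript GC content and length gave 5.42% and 4.73% there.

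**Figure D2:**
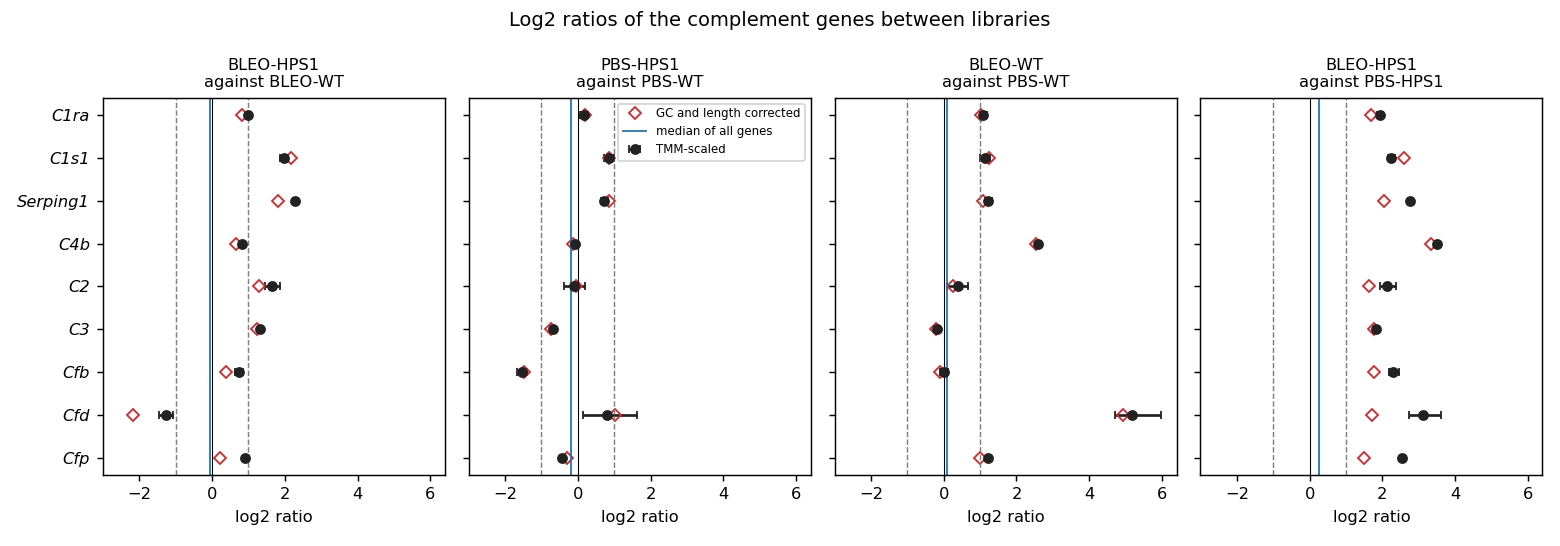
Log2 ratios (x axis) of the 9 complement genes (y axis) in the 4 comparisons, 1 panel each. Filled circles are TMM-scaled values with exact 95% counting intervals, open diamonds are GC- and length-corrected values, the solid blue line is the median of all genes compared and dashed lines mark a 2-fold difference. All filled circles lie to the right of the upper dashed line for BLEO-HPS1 against PBS-HPS1, while Cfd stands alone to the left for BLEO-HPS1 against BLEO-WT.

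Among the classical proteases, *C1ra* (ENSMUSG00000055172, plus strand of chromosome 6 from 124512405 to 124523443 in GRCm38) stood at 59.9 CPM in BLEO-HPS1 and 29.9 in BLEO-WT, against 15.7 in PBS-HPS1 and 14.0 in PBS-WT. Both bleomycin libraries were above both PBS libraries. Between the bleomycin libraries the log2 ratio, Hps1-/- over WT, was 1.0 (0.93 to 1.08), just at the 2-fold limit, and it was 0.87 with total counts alone and 0.83 after the GC and length correction. With bleomycin against PBS it was 1.09 in WT mice (0.98 to 1.19) and 1.93 in Hps1-/- mice (1.85 to 2.02).

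*C1s1* (ENSMUSG00000038521), which encodes the protease that C1r activates, lies on the minus strand nearby, from 124530345 to 124542359. It stood at 61.4 CPM in BLEO-HPS1 and 15.6 in BLEO-WT, against 12.9 in PBS-HPS1 and 7.15 in PBS-WT. The Hps1-/- library was the higher of each pair. Hps1-/- over WT gave a log2 ratio of 0.85 with PBS (0.71 to 1.0) and 1.97 with bleomycin (1.88 to 2.07). The reads of *C1ra* per read of *C1s1*, a ratio within a library that no scaling touches, were 1.97 in PBS-WT and 1.91 in BLEO-WT but 1.22 in PBS-HPS1 and 0.975 in BLEO-HPS1. The exact interval in PBS-HPS1 (1.13 to 1.31) and that in BLEO-HPS1 (0.932 to 1.02) lay below those of PBS-WT (1.77 to 2.18) and BLEO-WT (1.78 to 2.05). Near copies share sequence with both genes. Of the 50-base words of the longest *C1ra* transcript, 48.0% also occur in *C1rb*, and 24.3% of those of *C1s1* occur in *C1s2*, while *C1rb* and *C1s2* had at most 29 reads in any library.

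*Serping1* (ENSMUSG00000023224, minus strand of chromosome 2 from 84765387 to 84775444), the inhibitor of both proteases, stood at 186 CPM in BLEO-HPS1 and 38.4 in BLEO-WT, against 27.3 in PBS-HPS1 and 16.5 in PBS-WT. BLEO-HPS1 stood 4.84-fold above BLEO-WT, the largest uncorrected ratio of the 9 genes between these libraries. The log2 ratio was 2.28 (2.22 to 2.33). After the GC and length correction it was 1.82, below the corrected 2.18 of *C1s1*. For bleomycin against PBS it was 1.22 in WT mice (1.13 to 1.32) and 2.77 in Hps1-/- mice (2.71 to 2.83), the latter being 2.05 with the correction. Of the 36 pairs of members, *Serping1* and *C1s1* had the most similar profiles over the 4 libraries, 0.38 log2 units apart as Euclidean distance of centred log2 CPM. There were 3.03 reads of *Serping1* per read of *C1s1* in BLEO-HPS1 and 2.45 in BLEO-WT, against 2.12 in PBS-HPS1 and 2.30 in PBS-WT.

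C4 and C2 supply the pieces of the classical C3 convertase. *C4b* (ENSMUSG00000073418, minus strand of chromosome 17 from 34728380 to 34743882) stood at 351 CPM in BLEO-HPS1 and 197 in BLEO-WT, against 31.0 in PBS-HPS1 and 32.5 in PBS-WT. The PBS libraries were close together and both bleomycin libraries far above them. Bleomycin over PBS gave a log2 ratio of 2.60 in WT (2.54 to 2.66) and 3.50 in Hps1-/- mice (3.45 to 3.55), the largest of the 9 in Hps1-/- mice. Between the bleomycin libraries it was 0.83 (0.80 to 0.86), short of 2-fold, and between the PBS libraries -0.07 (-0.14 to 0.01), a value that was 0.18 with total counts alone. The close copy *C4a* contains 35.2% of the 50-base words of *C4b* and had between 43 and 104 reads, against 2535 to 22183 for *C4b*. How the counting treated reads that fit both is not given in the sources used here.

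*C2* (ENSMUSG00000024371, minus strand of chromosome 17 from 34862604 to 34898265) was low, with 9.81 CPM in BLEO-HPS1 and 3.10 in BLEO-WT, against 2.21 in PBS-HPS1 and 2.37 in PBS-WT. Only the BLEO-HPS1 library stood clear of the others. Its log2 ratio to BLEO-WT was 1.66 (1.45 to 1.88) and to PBS-HPS1 2.14 (1.93 to 2.38). In WT mice bleomycin over PBS gave a log2 ratio of 0.38 (0.10 to 0.67), and between the PBS libraries it was -0.10 (-0.39 to 0.19) and 0.14 with total counts alone. *C2* shares 4.16% of its exon bases with *Zbtb12* on the opposite strand, which had 346 to 524 reads per library.

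*C3* (ENSMUSG00000024164, minus strand of chromosome 17 from 57203970 to 57228136), the component on which all pathways converge, had the highest CPM of the 9 in every library. It stood at 881 CPM in BLEO-HPS1 and 350.3 in BLEO-WT, against 248 in PBS-HPS1 and 396 in PBS-WT. The genotype contrast pointed in opposite directions in the PBS and bleomycin libraries. Hps1-/- over WT gave a log2 ratio of -0.67 with PBS (-0.70 to -0.65) and 1.33 with bleomycin (1.31 to 1.35). In WT mice bleomycin over PBS gave a log2 ratio of -0.18 (-0.20 to -0.15), and in Hps1-/- mice it was 1.83 (1.81 to 1.85).

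In the alternative pathway, *Cfb* (ENSMUSG00000090231, minus strand of chromosome 17 from 34856374 to 34862518), next to *C2*, stood at 29.1 CPM in BLEO-HPS1 and 17.3 in BLEO-WT, against 5.88 in PBS-HPS1 and 17.1 in PBS-WT. PBS-HPS1 was the library that stood apart. It was 2.90-fold below PBS-WT, a log2 ratio of -1.54 (-1.68 to -1.40), and the 9 genes held no other 2-fold difference between the PBS libraries. Bleomycin over PBS gave a log2 ratio of 2.30 in Hps1-/- mice (2.17 to 2.44) and 0.02 in WT mice (-0.09 to 0.13). In WT mice it was -0.25 with total counts alone and -0.11 after the GC and length correction, and about 0 with DESeq2's size factors. The read-through gene *Gm20547*, which covers 79.5% of the exon bases of *Cfb* and 42.8% of those of *C2*, was listed with 0 reads in all 4 libraries, and whether reads fitting both were kept for *Cfb* and *C2* is not given in the sources used here.

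*Cfd* (ENSMUSG00000061780, plus strand of chromosome 10 from 79890853 to 79892655) was counted on 304 reads in BLEO-HPS1, with 908 in BLEO-WT, against 53 in PBS-HPS1 and 23 in PBS-WT. In CPM these were 4.81, 11.6, 0.535 and 0.295. The bleomycin libraries were above the PBS libraries in both genotypes, and the WT library was the highest. Bleomycin over PBS gave a log2 ratio of 5.18 in WT mice (4.70 to 5.96) and 3.11 in Hps1-/- mice (2.74 to 3.62), and the latter was 1.71 after the GC and length correction. Between the bleomycin libraries it was -1.26 (-1.46 to -1.08), and -2.17 with the correction. *Adipoq*, which adipocytes express, followed the same order of the bleomycin libraries, at 1.45 CPM in BLEO-WT and 0.364 CPM in BLEO-HPS1, and was counted on 4 and 3 reads in the PBS libraries. *Lep*, another adipocyte gene, was at 0.101 CPM or less in every library, and *Cidec* was lower in the bleomycin libraries, at 27.2 and 27.0 CPM, than in the PBS libraries, at 132 and 119 CPM. The adipocyte markers together summed to 33.6 and 30.2 CPM with bleomycin and 135 and 120.1 CPM with PBS, WT first, and *Cidec* made up most of these sums. The other 5 markers summed to 6.39 and 3.18 CPM with bleomycin and 2.73 and 1.48 CPM with PBS, WT first. Within each genotype this sum was higher in the bleomycin library, as *Cfd* was. In Hps1-/- mice *Lep* and *Retn*, both under 1 CPM, were lower with bleomycin, *Retn* at 0.269 against 0.505 CPM. Among the 4 adipocyte markers compared, 2 were higher and 1 lower for bleomycin over PBS in WT mice, and 3 were higher and 1 lower in Hps1-/- mice, *Cidec* being the lower gene in both. The part of adipocyte RNA in the level of *Cfd* was not tested.

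*Cfp* (ENSMUSG00000001128, minus strand of chromosome X from 20925454 to 20931555), which encodes properdin, stood at 471 CPM in BLEO-HPS1 and 253 in BLEO-WT, against 81.0 in PBS-HPS1 and 109.7 in PBS-WT. Both bleomycin libraries lay above both PBS libraries. Bleomycin over PBS gave a log2 ratio of 1.21 in WT mice (1.17 to 1.24) and 2.54 in Hps1-/- mice (2.50 to 2.58). After the GC and length correction these were 1.0 (just short of the limit) and 1.48. Between the bleomycin libraries the log2 ratio was 0.90 (0.87 to 0.92) and was 0.23 with the correction, and between the PBS libraries it was -0.44 (-0.48 to -0.39).

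Per kilobase of transcript, which allows genes to be compared, *C3* and *Cfp* led the 9 genes in each library. In PBS-WT the CPM per kilobase was 77.1 for *C3* and 67.1 for *Cfp*. In PBS-HPS1 it was 48.3 for *C3* (95% Poisson interval 47.7 to 48.9) and 49.5 for *Cfp* (48.4 to 50.6), which overlap. In both bleomycin libraries *Cfp* was ahead, at 155 against 68.2 and at 288 against 172. *Cfp* in BLEO-HPS1 ranked 299 among 14813 genes with a length, within the top 2.02%. In BLEO-HPS1 *Serping1* followed at 105 and *C4b* at 65.3. *C1s1* at 20.9 (20.2 to 21.5) and *C1ra* at 20.1 (19.5 to 20.7) did not differ beyond counting error. *Cfb* at 10.6, *Cfd* at 5.22 and *C2* at 3.72 were the lowest. In PBS-WT the order below *Cfp* was *Serping1* (9.31), *Cfb* (6.22), *C4b* (6.05), *C1ra* (4.71), *C1s1* (2.43), *C2* (0.899) and *Cfd* (0.320), and the intervals of *Cfb* and *C4b* overlapped.

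Bleomycin and PBS libraries lay further apart in Hps1-/- than in WT mice for 8 of the 9 genes on the log2 ratio scale, with a median difference of 1.33, beside 0.15 for all genes compared. The difference was at least 1 for 6 genes, where it was so for 16.3% of all genes, and at most -1 for *Cfd*, where 11.2% of all genes were. It was 2.28 for *Cfb*, 2.00 for *C3*, 1.76 for *C2*, 1.55 for *Serping1*, 1.33 for *Cfp* and 1.12 for *C1s1*. For *C4b* and *C1ra* it was 0.90 and 0.84, and for *Cfd* -2.07. After the GC and length correction those of *Serping1* and *Cfp* were 0.96 and 0.49 and that of *Cfd* was -3.21, and with total counts alone those of *C1s1* and *Cfp* were 0.74 and 0.96. With 1 library per group these differences could not be tested. They also take in the PBS libraries, in which *Cfb*, *C3* and *Cfp* were lower in PBS-HPS1.

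**Figure D3:**
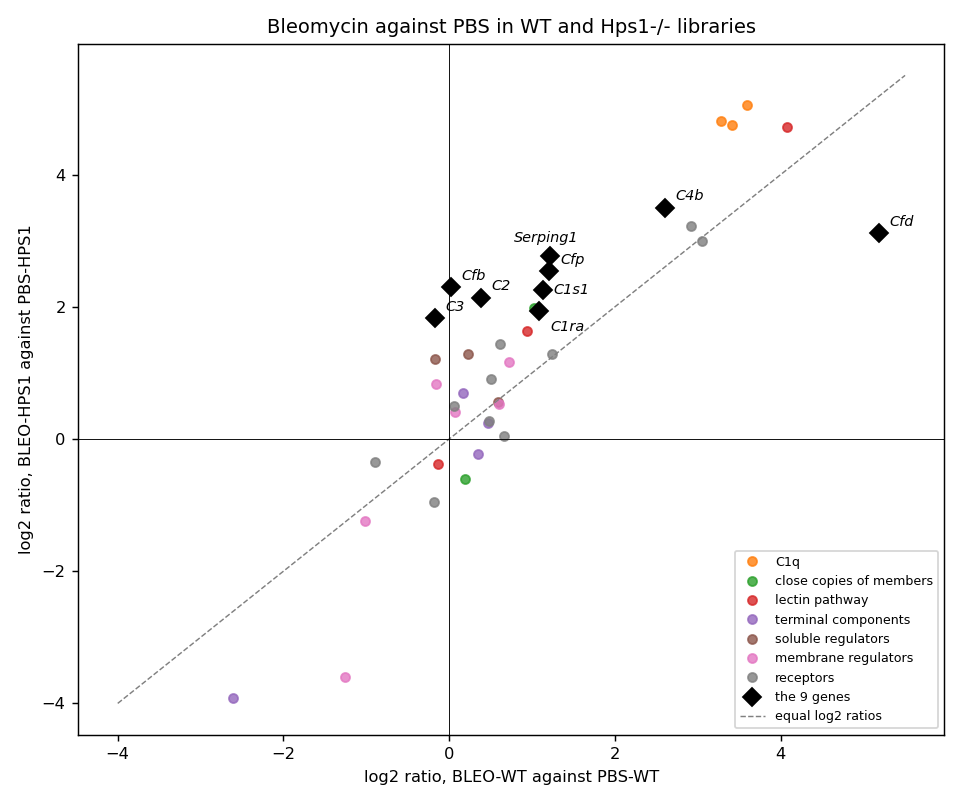
Log2 ratio of bleomycin to PBS in WT mice (x axis) and in Hps1-/- mice (y axis) for the 9 complement genes (black diamonds, named) and 31 other complement genes (circles, coloured by list). Points above the dashed line had the larger ratio in Hps1-/- mice, as 8 of the 9 genes did, and Cfd lies below it.

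A list of 48 other complement genes was set beside the 9, and 31 of them were compared. For BLEO-HPS1 against BLEO-WT, 2 of the 31 were higher and 4 lower, with a median log2 ratio of 0.04. Of all genes compared, 6.72% were higher and 10.3% lower there, so these counts were near the background. *Masp1*, a protease of the lectin pathway, and *Csmd1*, a membrane regulator, were the higher genes, at 1.46 and 1.42 CPM in BLEO-HPS1. The lower genes were *Hc*, which encodes C5, the membrane regulator *Cd46*, and the receptors *C5ar2* and *Vsig4*. For bleomycin against PBS, 8 were higher and 3 lower in WT mice, and 13 were higher and 3 lower in Hps1-/- mice, with medians of 0.48 and 0.70. Over all genes, 5.28% were higher and 8.22% lower in WT mice, and 26.2% and 19.6% in Hps1-/- mice, with medians of 0.09 and 0.25. The 3 chains of C1q, which starts the classical pathway, stood at 44.1 to 143 CPM in the PBS libraries and at 885 to 2047 CPM in the bleomycin libraries. For *C1qa*, bleomycin over PBS gave log2 ratios of 3.28 in WT and 4.80 in Hps1-/- mice, and Hps1-/- over WT gave 0.56 between the bleomycin libraries. That last value was -0.34 after the GC and length correction. *Fcna*, a ficolin of the lectin pathway, was at 3.93 and 2.34 CPM with PBS and at 66.8 and 62.2 CPM with bleomycin, WT first.

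Terminal and regulatory genes varied in their pattern. *Hc* stood at 1.80 CPM in BLEO-HPS1 and 5.55 in BLEO-WT, against 27.6 in PBS-HPS1 and 33.8 in PBS-WT, so it was lowest where *C3* was highest. *C7*, of the membrane attack complex, was at 45.2, 26.2, 38.3 and 19.0 CPM in the same order, the Hps1-/- library being the higher of each pair. *C6* and *C8g* stayed between 1.41 and 2.70 CPM, and *C8a*, *C8b* and *C9* stayed under 1 CPM. The soluble regulators *Clu* (clusterin) and *Vtn* (vitronectin), which block the membrane attack complex, were highest in BLEO-HPS1, as 8 of the 9 were. *Clu* was at 47.4, 30.5, 19.5 and 26.1 CPM and *Vtn* at 3.02, 1.54, 1.29 and 1.74 CPM in the order given for *Hc*. Both were past 2-fold for bleomycin over PBS in Hps1-/- mice, with log2 ratios of 1.28 and 1.21, and short of it between the bleomycin libraries. The membrane regulator *Cd59a* had the same order as *C1ra*, at 2.91, 1.72, 1.28 and 1.04 CPM. Of the other membrane regulators, *Cr1l* was at 100.5, 103, 75.5 and 98.2 CPM, and *Cd55* at 10.5, 11.9, 24.9 and 24.1 CPM. Of the receptors, *C3ar1*, the receptor of the C3a fragment, was at 80.8, 154, 10.2 and 18.7 CPM, and *C5ar1* was at 157, 204, 129 and 147 CPM.

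Marker genes of some other cell types followed the order of some of these complement genes, and those of others did not. The 12 fibroblast markers, all detected in each library, summed to 3287 CPM in BLEO-HPS1 and 747 in BLEO-WT, against 473 in PBS-HPS1 and 319 in PBS-WT, in the same order as *C1ra*, *C1s1* and *Serping1*. Of these 12 genes, 11 were higher and none lower when BLEO-HPS1 was set against BLEO-WT. The summed dendritic cell markers had the same order of libraries, at 508, 353, 278 and 254 CPM. *Ccr7* made up most of these sums, at 411, 270, 215 and 170 CPM. The other dendritic cell markers, *Flt3*, *Xcr1*, *Itgae* and *Zbtb46*, did not have that order, each being lower in PBS-HPS1 than in PBS-WT. Sums of the B cell, T cell, endothelial and ILC2 markers were also highest in BLEO-HPS1, at 313, 858, 1130 and 1049 CPM. Most of that ILC2 sum came from *Thy1* (551 CPM) and *Arg1* (257 CPM). *Rora*, *Il7r*, *Icos* and *Il1rl1* were lowest in BLEO-HPS1, at 13.2, 76.9, 32.1 and 23.8 CPM. Of 12 ILC2 markers compared, 3 were higher and 5 lower for BLEO-HPS1 against PBS-HPS1. The ILC2 median log2 ratio was -0.85 there and -0.17 for BLEO-HPS1 against BLEO-WT. Reads of *Serping1* per read of *Col1a1*, which encodes a collagen chain, were 0.189 in BLEO-HPS1 and 0.226 in BLEO-WT, against 0.364 in PBS-HPS1 and 0.431 in PBS-WT, so *Col1a1* differed by more than *Serping1* did. The 11 macrophage and monocyte markers summed to 21884 CPM in BLEO-WT, 18548 in BLEO-HPS1, 16020 in PBS-WT and 11856 in PBS-HPS1. *Lyz2* made up most of each sum, and *Adgre1*, *Cd68*, *Cd14* and *Ms4a7* had the same order of libraries as the sums. *Csf1r* and *Fcgr1* had the order of *Cfp* instead, at 1603 and 148 CPM in BLEO-HPS1 and 1347 and 114 CPM in BLEO-WT. *Mrc1*, *Mertk*, *Chil3* and *Marco* were lowest in BLEO-HPS1. For BLEO-HPS1 against BLEO-WT none of the 11 was higher and 2 were lower. In that comparison 4 of 5 B cell markers were higher and none lower. The 8 neutrophil markers were all lower in PBS-HPS1, where they summed to 409 CPM, than in PBS-WT, where they summed to 1404 CPM, with a median log2 ratio of -1.90. That was also the comparison in which *Cfb* was past 2-fold lower and *C3* and *Cfp* had negative log2 ratios. Neutrophil markers were not alone in this between the PBS libraries. Medians were -0.96 for C1q and -0.44, -0.42 and -0.47 for macrophage and monocyte, T cell and dendritic cell markers, beside -0.19 for all genes. Those of fibroblast and mesothelial markers were positive, at 0.70 and 0.16. Between the bleomycin libraries 5 of the 8 neutrophil markers were lower and 1, *Camp*, was higher, with sums of 359 CPM in BLEO-HPS1 and 815 CPM in BLEO-WT. The 4 hepatocyte markers summed to 0.783 CPM or less. The lineage gate of the sort removes cells that carry CD3, CD11b, B220, Ly6G or Ly6C, and the methods state a high purity of the sorted cells. In bulk RNA, more cells of a type and more RNA per cell cannot be told apart, and the part of these cells in the complement levels was not tested. The number of cells sequenced increased in the order of the fibroblast sums, and its part was not tested either.

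**Figure D4:**
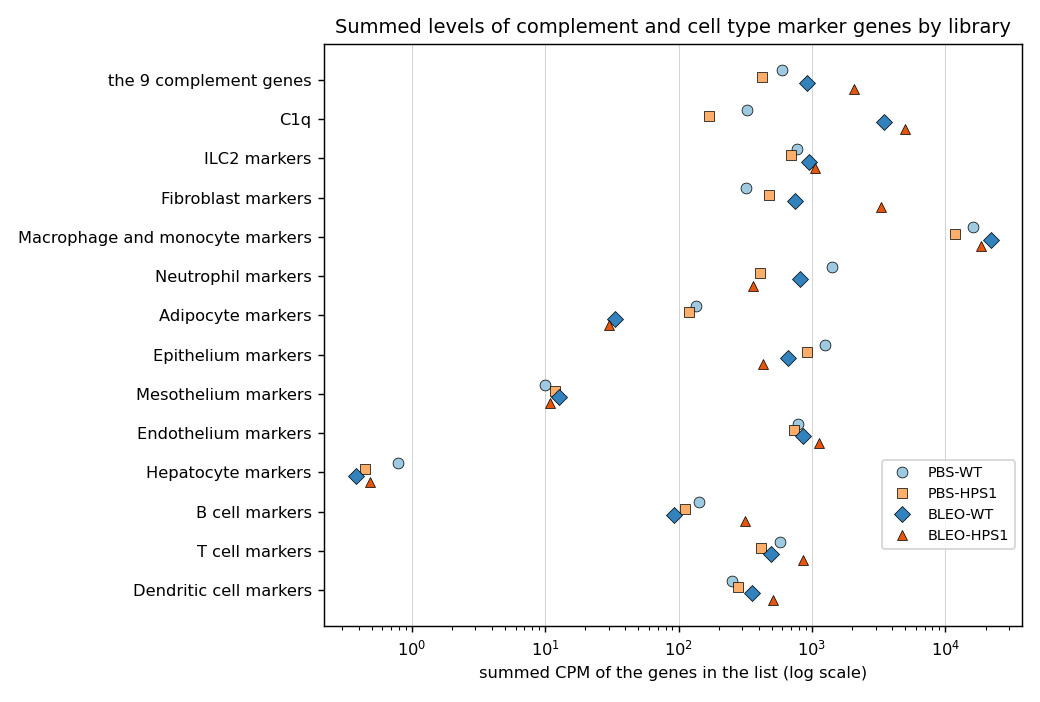
Summed CPM (x axis, log scale) of the 9 complement genes, of C1q and of 12 lists of cell type markers (y axis) in each of the 4 libraries, 1 symbol per library. Fibroblast markers reach 3287 CPM in BLEO-HPS1, and macrophage and monocyte markers reach 11856 CPM or more in every library.

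The genes with the nearest profiles were looked up over the 4 libraries by the distance of centred log2 CPM, among genes outside the 9 with at least 5 CPM in some library. With only 4 libraries, many genes are close to any profile. *C1ra* was nearest to *Serpine2* (0.12) and *Angptl2* (0.14), *C1s1* to *Slit3* (0.18) and *Bgn* (0.19), and *Serping1* to *Ptgis* (0.12) and *Podn* (0.17). *C4b* was nearest to *Htra3* (0.20) and *Nt5dc2* (0.25), and *C2* to *Loxl3* (0.18) and *Comp* (0.18). *C3* was nearest to *Psmb9* (0.14) and *Klk8* (0.14), *Cfb* to *Lrrc25* (0.29) and *Ppfia4* (0.29), and *Cfp* to *Galk1* (0.14) and *Mybl2* (0.18). The profile of *Cfd* had few neighbours, with *Slc36a2* at 0.32 and the next gene, *Ecm1*, at 1.09.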

How the data were processed

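RNA of sorted lung ILC2s was sequenced in 4 groups with 1 library each, grouped by the sample labels. The authors deposited raw counts of reads, 1 row per Ensembl identifier. The library kit was a SMARTER mRNA-Seq kit, and the aligner, the counting tool and the genome build are not given in the sources used here. GENCODE M21 (GRCm38) held 49056 of the 49315 identifiers, and from it positions, exon overlaps and the length and GC content of the longest transcript were taken. Total counts were 72513619 to 87638154 per library.

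Counts were scaled with TMM factors of edgeR 4.0.16 in R 4.3.3. Log2 CPM used a prior count of 2, and genes with 1 CPM or more in any library were compared. With 1 library per group no quasi-likelihood test could be run, no p-value is given for a condition, and the 2-fold limit is the only criterion. Where a symbol had more than 1 row (*Itgam*), the row with more reads was used. Intervals are exact at 95% and cover counting error only, since PCR copies of a molecule are counted as separate reads. The alternatives were DESeq2 1.42.0 size factors, total counts, TMM without immunoglobulin genes, prior counts of 0.5 and 10, other count filters, a log2 limit of 2, edgeR's exact test with biological variation set to 0.4, and a loess fit (span 0.3) of each log2 ratio on transcript GC and length. The scaled log2 ratios and their 2-fold calls, the exact intervals of these ratios and the loess step were tested on simulated counts, and the other steps were not. The 9 genes, the other lists and the alternatives were chosen with earlier results of these data known. Named genes were all 9 members, other complement genes that reached 1 CPM (with *C8a*, *C8b*, *C9*, *C1rb* and *C1s2* named for completeness after their values were seen), defining markers, and the 2 nearest profiles of each member. Some values are not reported here.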

Additional observations from a re-analysis of the deposited data

Results flagged for a closer look

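Some genes had log2 ratios of opposite sign in the 2 genotypes or under the 2 treatments, with counting intervals clear of 0 on both sides. The differences themselves were not tested, since each group is 1 library. For *C3*, bleomycin over PBS gave a log2 ratio of 1.83 in Hps1-/- mice but -0.18 in WT mice, and Hps1-/- over WT gave 1.33 with bleomycin and -0.67 with PBS. For *Cfb*, the ratio of Hps1-/- to WT was 0.75 with bleomycin and -1.54 with PBS, and for *Cfp* it was 0.90 and -0.44. For *Cfd* the signs were the other way round, at -1.26 with bleomycin and 0.81 with PBS, the last value resting on 53 and 23 reads. These signs were the same under each scaling, prior count and correction tried.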

How the results depend on the processing

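No paired analysis was possible because each group is 1 library and the labels carry no replicate numbers, and for the same reason no library could be left out. With total counts alone, the median log2 ratio of the 9 genes between genotypes was 0.87 with bleomycin and, in place of -0.07, 0.18 with PBS, and that of bleomycin over PBS was 0.86 in WT and 1.66 in Hps1-/- mice, and the median difference between genotypes was 0.96. Genes past 2-fold then numbered 3 between the PBS libraries and 2 for bleomycin over PBS in WT mice. With the GC and length correction the medians were 0.83 between the bleomycin libraries and 1.76 for bleomycin over PBS in Hps1-/- mice, the median difference was 0.96, and 2 genes, *Cfb* and *Cfd*, were past 2-fold between the PBS libraries, where 2.23% of all genes were higher and 2.84% lower. A log2 limit of 2 left 1 gene (*Serping1*) between the bleomycin libraries, 0 between the PBS libraries, and for bleomycin over PBS 2 (*C4b* and *Cfd*) in WT and 7 in Hps1-/- mice. Over all genes at that limit, 1.496% were higher and 0.418% lower between the bleomycin libraries, 0.276% and 1.0% between the PBS libraries, 1.14% and 1.82% for bleomycin over PBS in WT mice, and 4.37% and 5.49% in Hps1-/- mice. In edgeR's exact test with biological variation assumed at 0.4 and an adjusted p under 0.05, the counts were 0, 0, 1 (*Cfd*) and 2 (*C4b* and *Cfd*) in that order. The test called 0.256% of all genes higher and 0.027% lower, 0.0809% and 0.337%, 0.256% and 0.350%, and 1.17% and 0.930%. Other prior counts, count filters, DESeq2's size factors and TMM factors without immunoglobulin genes changed no count. Of the 36 single log2 ratios, 30 moved beyond their counting interval with total counts alone, 27 with the correction and 5 with DESeq2's size factors.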

Other observations

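Ratios of reads within a library need no scaling between libraries. In WT mice there were 0.562 reads of *C4b* per read of *C3* with bleomycin (95% exact interval 0.551 to 0.574) and 0.0822 with PBS (0.0789 to 0.0856). In Hps1-/- mice there were 0.399 with bleomycin (0.392 to 0.405) and 0.125 with PBS (0.120 to 0.130). The classical component thus gained on *C3* with bleomycin in both genotypes, and the ratio was higher in Hps1-/- mice with PBS and in WT mice with bleomycin. Reads of *Cfp* per read of *C3* followed the same order of libraries, at 0.723 and 0.535 with bleomycin and 0.277 and 0.327 with PBS, WT first. Such ratios are not free of effects of GC content and length. After that correction, bleomycin over PBS in Hps1-/- mice gave log2 ratios of 1.48 for *Cfp* and 1.78 for *C3*. With the correction *Cfp* thus did not gain on *C3* there. In WT mice the corrected values were 1.0 for *Cfp* and -0.21 for *C3*. For *C4b* they were 2.54 in WT and 3.34 in Hps1-/- mice. Reads of *C4b* per read of *C1qa* were 0.142 and 0.172 with bleomycin and 0.228 and 0.424 with PBS, so that *C1qa* gained on *C4b* with bleomycin. Together *C3* and *Cfp* made up 84.9% (WT) and 77.5% (Hps1-/-) of the summed CPM of the 9 genes with PBS, and 65.9% and 65.8% with bleomycin.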
